A study of Caenorhabditis elegans with 9 samples.

Results

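The genes vha-5, vha-6, vha-7 and unc-32 of Caenorhabditis elegans encode the a subunits of the vacuolar proton pump, the V-ATPase. They were taken by gene name from the deposited table of transcript abundance and joined by gene identifier to the deposited raw counts, which gave 4 genes of 46778 in the tables. RNA was sequenced from 3 libraries of P-bodies sorted out of oocytes by what the labels call FAPS, 3 libraries of dissected oocytes, and 3 libraries of whole animals that were neither dissected nor sorted. Per the labels every group came from females of 1 strain with fog-2, CAR-1 tagged with GFP and PGL-1 tagged with RFP, at oocyte arrest on day 3, with L4 also given as a stage. The fog-2 mutation leaves animals of this sex without sperm of their own. CAR-1 is an RNA-binding protein of P-bodies, and PGL-1 is a protein of germ granules. The labels do not say whether replicates came from separate cultures or animals, so p-values reflect no more than how far the libraries of a group differ, and that may be technical.

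The V-ATPase uses ATP to pump protons across membranes. Its V1 sector hydrolyses ATP, and its V0 sector sits in the membrane and carries the protons. The a subunit belongs to V0, lines the path of the protons and helps to set which membrane the pump works in. In the worm vha-6 is known from the apical membrane of the intestine, vha-5 from the hypodermis and the excretory cell, vha-7 from the hypodermis and the uterus, and unc-32 from the nervous system and other tissues.

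The 4 genes differ in structure. By the deposited coordinates (WBcel235), unc-32 (WBGene00006768) lies at chromosome III 8905615 to 8911749 on the plus strand. The gene vha-5 (WBGene00006914) lies at IV 8303968 to 8307369 on the plus strand, and vha-7 (WBGene00006916) at IV 12640447 to 12650652 on the same strand. The gene vha-6 (WBGene00006915) lies at II 11435212 to 11438464 on the minus strand. In the Ensembl annotation the longest coding model had 1210 codons in 25 exons for vha-7, against 905 codons in 10 exons for unc-32, 873 in 5 exons for vha-5 and 865 in 6 exons for vha-6. The annotation gave 6 coding models for unc-32, 3 for vha-7 and 1 each for vha-5 and vha-6, and the counts per gene do not separate them. The end of vha-5 overlaps the exons of F35H10.10, a protein-coding gene on the opposite strand, by 57 bases. The strand setting of the counting is not given in the sources used here, so the values of vha-5 are uncertain. F35H10.10 had 8.20 to 8.50 CPM in P-bodies, 2.85 to 3.45 CPM in oocytes and 4.07 to 6.89 CPM in whole animals. Its mean on this scale was highest in P-bodies, where that of vha-5 was lowest.

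Libraries held 27946955 to 78685226 counts. Ribosomal RNA took 29.8 to 38.0% of them in P-bodies, against 86.8 to 88.8% in oocytes and 91.4 to 91.7% in the whole animals, which left 45262531 to 54937023, 3566621 to 7905996 and 3226465 to 5129627 counts in protein-coding genes. The scaling between libraries therefore decides many directions. CPM values, counts scaled to the size of a library, were here scaled by TMM factors, which set the typical gene to no change. A log2 fold change is thus relative to the typical gene and is no amount per cell or per granule. The labels were checked against marker genes. All 10 of the oocyte and germline list were detected in every library and together took 1.46 to 1.5% of protein-coding counts in P-bodies, against 1.09 to 1.12% in oocytes and 0.859 to 0.920% in the whole animals. The gene spn-4 carried most of the excess of P-bodies over oocytes, with a mean of 906 CPM against 251 CPM. The yolk receptor gene rme-2 went the other way, with 225 CPM against 391 CPM. By the edgeR test on the TMM scale 4 of the 10 were called higher and 1 lower in that comparison. Of all genes tested 26.7% were called higher and 28.8% lower there. The median log2 fold change of the list was 0.12. Against whole animals 6 were called higher and 1 lower, with a median of 0.34, where the shares of all genes were 27.9 and 38.9%. With library totals in place of TMM factors all 10 were higher in both comparisons. The medians of the list were then 2.63 and 3.53, where those of all genes were 2.44 and 3.00. The 8 sperm genes took at most 0.00103%.

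The messages of vha-7 and unc-32 made up most of the a-subunit RNA in P-bodies and oocytes, whereas vha-6 and vha-5 held a sizeable share in whole animals alone. In TPM, the deposited abundance per transcript length, which can be compared between genes, vha-7 stood at 61.3, 77.1 and 72.8 in P-bodies, against 19.4, 18.6 and 17.3 in oocytes and 11.7, 10.9 and 11.1 in whole animals. unc-32 stood at 48.2, 46.1 and 54.2 TPM in P-bodies, against 12.7, 17.7 and 17 in oocytes and 11.1, 10.4 and 10.5 in whole animals. The ranges of vha-7 and unc-32 in TPM did not overlap in P-bodies and overlapped in both other groups. vha-6 had 1.47, 1.68 and 1.35 TPM in P-bodies, against 0.822, 0.489 and 0.963 in oocytes and 5.48, 6.17 and 5.59 in whole animals. vha-5 had 0.648, 0.387 and 0.395 TPM in P-bodies, 0.501, 0 and 0.454 in oocytes, where 1 library lists it at 0, and 2.12, 2.11 and 1.61 in whole animals. The order in TPM was vha-7, unc-32, vha-6, vha-5 by the mean of each group, and vha-6 lay above vha-5 in every library.

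These TPM values include ribosomal RNA in their total, and they rank the groups otherwise than a total of messages does. Recomputed over protein-coding genes alone, unc-32 averaged 69.4 ± 8.15 TPM in P-bodies, against 108 ± 15.5 TPM in oocytes and 106 ± 3.76 TPM in whole animals (all such values are mean ± SD of 3 libraries). vha-7 averaged 98.1 ± 5.02, 128 ± 30.5 and 112 ± 4.37 in the same groups. vha-6 averaged 2.09 ± 0.181 in P-bodies, against 5.48 ± 2.50 in oocytes and 57.2 ± 7.12 in whole animals. Among the protein-coding genes above 0 in P-bodies, 77.4% had a lower mean TPM than vha-7, 72.0% than unc-32, 41.9% than vha-6 and 32.2% than vha-5. In whole animals those figures were 82.6%, 81.6%, 68.7% and 52.4%.

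In P-bodies against oocytes all 4 genes had lower TMM-scaled levels in P-bodies. The comparison addresses which messages stood higher or lower in P-body libraries than in oocyte libraries, relative to the typical gene. unc-32 had 21.9, 19.5 and 23.7 CPM in P-bodies, against 34.7, 31.5 and 37.1 CPM in oocytes. Every P-body library lay below every oocyte library, and the log2 fold change was -0.67 ± 0.10 (SE, edgeR's quasi-likelihood test over all genes, adjusted p = 0.000122). vha-7 had 33.0, 38.8 and 37.7 CPM in P-bodies, against 61.9, 38.9 and 44.7 CPM in oocytes. The groups only just separated, and 1 oocyte library stood well above the rest. Its log2 fold change was -0.41 ± 0.15 (edgeR, adjusted p = 0.0337). Without the first oocyte library the value was -0.17 (adjusted p = 0.246), and the call was also lost without either P-body library 1 or 3 (-0.33 and -0.42) or any 1 of the whole-animal libraries (-0.39, -0.39 and -0.40), when only both compared groups were fitted (-0.40) and with no filter on low counts (-0.18).

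The intestinal vha-6 had 139, 181 and 130 counts in P-bodies, against 43, 12 and 85 in oocytes. Scaled, that was 0.518, 0.604 and 0.491 CPM in P-bodies and 1.86, 0.597 and 1.68 CPM in oocytes. The lowest oocyte library lay within the P-body range, while the other two were far above it. The log2 fold change was -1.40 ± 0.29 (edgeR, adjusted p = 0.00122). vha-5 had 65, 46 and 39 counts in P-bodies, against 25, 2 and 40 in oocytes, or 0.242, 0.154 and 0.147 CPM against 1.08, 0.0995 and 0.789 CPM. The same oocyte library, the second, was lowest for both genes and had the lowest share of intestine markers. The log2 fold change of vha-5 was -1.90 ± 0.51 (edgeR, adjusted p = 0.00682). With the replicate number as a block in a fit of both groups it was -1.58 (adjusted p = 0.108), so that the call was lost.

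Of all 10162 genes tested, 28.8% were called lower and 26.7% higher in P-bodies against oocytes at an adjusted p under 0.05, with a median log2 fold change of -0.06. All 4 members had passed the filter on low counts, vha-5 with only 2 of its 3 oocyte libraries at the cutoff. The direction held only relative to the typical gene. With library totals in place of TMM factors the values of unc-32 and vha-7 were 1.85 and 2.13, those of vha-6 and vha-5 1.16 and 0.66, and the median of all genes moved by 2.50. Relative to that median, unc-32 stood at -0.59 with library totals against -0.61 with TMM, vha-7 at -0.31 against -0.35, vha-6 at -1.28 against -1.34 and vha-5 at -1.78 against -1.84. On log2(TPM + 1) unc-32 and vha-7 stood above the median of all genes, by 0.27 and 0.55. On log2(TPM + 0.1) they stood below it, at -0.33 and -0.05. A change of scaling moves all genes by nearly the same amount. The near agreement of library totals and TMM relative to the median was therefore fixed in advance and shows no stability. The place of unc-32 and vha-7 relative to the median differed by unit and pseudocount.

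**Figure D1:**
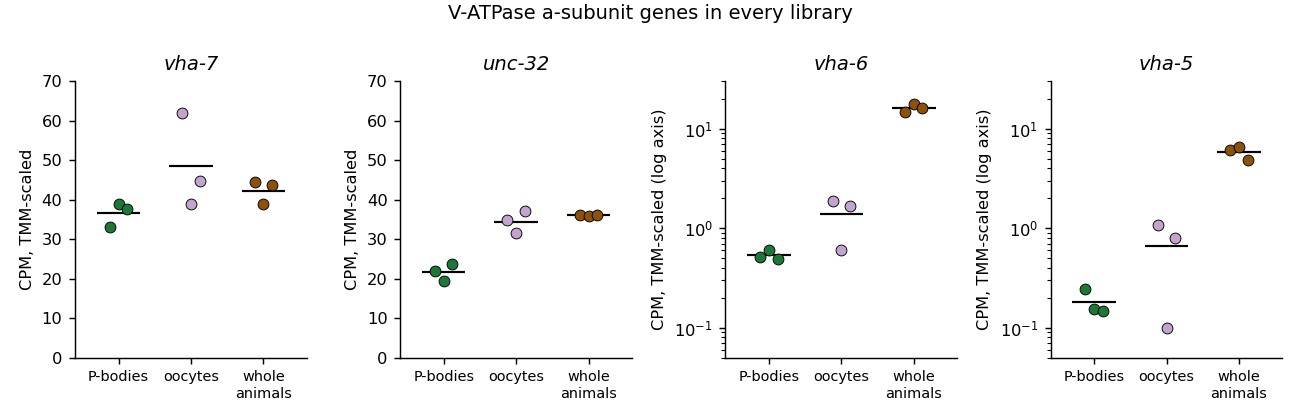
TMM-scaled CPM of the 4 a-subunit genes in every library of P-bodies, oocytes and whole animals, with 3 points a group and a bar at the mean. The axes are linear for vha-7 and unc-32 and logarithmic for vha-6 and vha-5, and CPM is not per length. vha-6 and vha-5 lie far higher in whole animals than elsewhere, and unc-32 lies lowest in P-bodies on this scale (with library totals unc-32 is highest there).

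In oocytes against whole animals, vha-6 and vha-5 were lower in oocytes, while vha-7 and unc-32 did not pass the test. Here the question is which messages stood higher or lower in oocyte libraries than in whole-animal libraries, relative to the typical gene. vha-6 had 1.86, 0.597 and 1.68 CPM in oocytes, against 14.7, 17.8 and 16.1 CPM in whole animals. Every oocyte library lay far below every whole-animal library, with a log2 fold change of -3.51 ± 0.29 (edgeR, adjusted p = 1.65e-05). vha-5 averaged 0.656 ± 0.504 CPM in oocytes and 5.82 ± 0.851 CPM in whole animals. The groups did not overlap, and the log2 fold change was -3.10 ± 0.50 (edgeR, adjusted p = 0.00164). Both genes kept their direction and call with library totals (-2.88 and -2.48) and on log2(TPM + 1) (-1.95 and -1.18).

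unc-32 averaged 34.4 ± 2.83 CPM in oocytes and 36 ± 0.185 CPM in whole animals. Its log2 difference was -0.06, with a 95% interval of -0.29 to 0.16 (edgeR, adjusted p = 0.762). vha-7 averaged 48.5 ± 12 CPM in oocytes and 42.3 ± 3.05 CPM in whole animals, a log2 difference of 0.20 with an interval of -0.13 to 0.52 (edgeR, adjusted p = 0.465). The groups overlapped for both genes. The intervals leave out a difference as large as those of vha-6 and vha-5, and a p that misses the threshold does not show that the levels are equal. With library totals both passed the test as higher in oocytes, unc-32 at 0.61 and vha-7 at 0.85, where the median of all genes moved by 0.68. Without oocyte library 1 vha-7 stood at -0.01, and without oocyte library 2 unc-32 stood at 0.01. So 2 of 4 members were called lower in oocytes and 0 higher, where 12.5% of all genes were called lower and 0.709% higher, with a median of 0.00.

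In P-bodies against whole animals, which shares its libraries with both other comparisons, vha-6, vha-5 and unc-32 were lower in P-bodies. vha-6 averaged 0.538 ± 0.0593 CPM in P-bodies and 16.2 ± 1.57 CPM in whole animals, a log2 fold change of -4.91 ± 0.30 (edgeR, adjusted p = 3.85e-08). vha-5 averaged 0.181 ± 0.0530 CPM in P-bodies and 5.82 ± 0.851 CPM in whole animals, a log2 fold change of -5.0 ± 0.52 (edgeR, adjusted p = 3.73e-06). Neither gene's groups overlapped. With library totals the values were -1.72 for vha-6 and -1.82 for vha-5, both still called. unc-32 averaged 21.7 ± 2.11 CPM in P-bodies and 36 ± 0.185 CPM in whole animals, at -0.73 ± 0.10 (edgeR, adjusted p = 4.49e-05), but at 2.46 with library totals, where the median of all genes moved by 3.18. vha-7 averaged 36.5 ± 3.09 CPM in P-bodies and 42.3 ± 3.05 CPM in whole animals. Its log2 difference was -0.21 with an interval of -0.54 to 0.11 (edgeR, adjusted p = 0.227), and it passed as lower under a stricter filter (-0.38, adjusted p = 0.0370) and as higher with library totals (2.98). So 3 of 4 members were called lower and 0 higher, where 38.9% of all genes were called lower and 27.9% higher, with a median of -0.18.

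**Figure D2:**
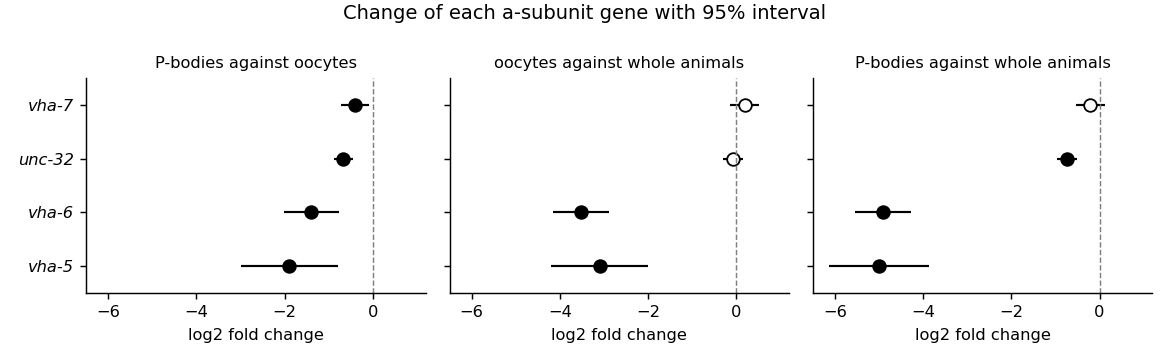
Log2 fold change of each a-subunit gene in the 3 comparisons, with a bar for the 95% interval and a filled point where the adjusted p was under 0.05. Values below 0 mean lower in the first group of a panel's title on the TMM scale. vha-6 and vha-5 reach -4.91 and -5.0 in P-bodies against whole animals, while vha-7 and unc-32 stay between -0.73 and 0.20 (between 0.61 and 2.98 with library totals).

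The mix of the a-subunit messages needs no scaling between libraries. Of the summed TPM of the 4 genes, vha-7 took 54.9, 61.6 and 56.5% in P-bodies, against 58.0, 50.6 and 48.4% in oocytes and 38.4, 36.9 and 38.6% in whole animals. unc-32 took 43.2, 36.8 and 42.1% in P-bodies, against 38.1, 48.1 and 47.6% in oocytes and 36.6, 35.1 and 36.4% in whole animals. In TPM both shares were lower in every whole-animal library than in any P-body or oocyte library, for unc-32 only narrowly. By summed counts unc-32 took 39.3, 33.0 and 38.2% in P-bodies and 34.9, 44.3 and 44.0% in oocytes. In whole animals it took 35.7, 36.2 and 35.8% of the counts, so that its separation was lost. vha-6 took 1.23% ± 0.159 in P-bodies, against 2.16% ± 0.731 in oocytes and 19.4% ± 1.42 in whole animals. vha-5 took 0.581, 0.309 and 0.307% in P-bodies, against 1.5, 0 and 1.27% in oocytes and 6.96, 7.15 and 5.58% in whole animals. These last values include the oocyte library where vha-5 is listed at 0.

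Between P-bodies and oocytes the shares of all 4 genes overlapped (two-sided exact permutation tests, p = 0.2 to 0.4). Against whole animals no share of the summed TPM overlapped for either P-bodies or oocytes. Each of these 8 exact permutation tests gave p = 0.1, the smallest that 3 against 3 allows (0.15 adjusted over the 12 tests). The 4 shares sum to the whole, so a rise of one is a fall of others. The ratio of vha-7 to unc-32 in TPM leaves the other two genes out. It was 1.27, 1.67 and 1.34 in P-bodies, against 1.52, 1.05 and 1.02 in oocytes and 1.05, 1.05 and 1.06 in whole animals. P-bodies lay above whole animals in every library, and oocytes overlapped both.

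**Figure D3:**
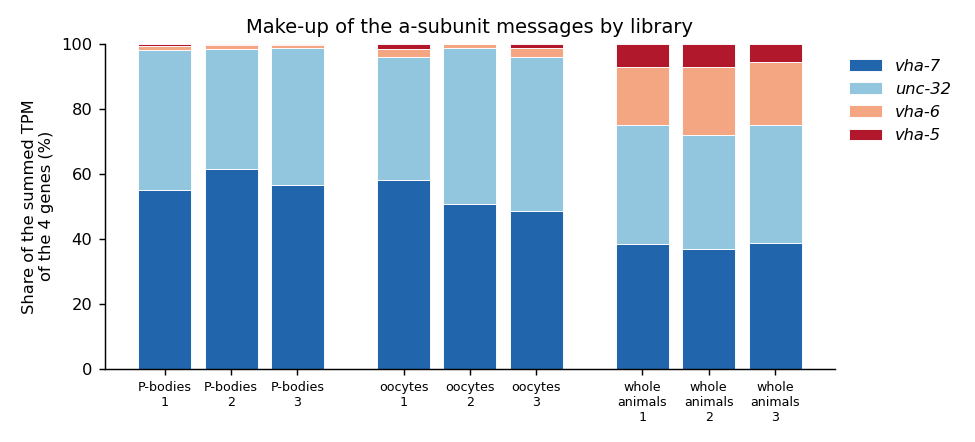
Share of each gene in the summed TPM of the 4 a-subunit genes (percent, stacked to 100) for 3 libraries each of P-bodies, oocytes and whole animals. vha-6 took 19.4% on average in whole animals, against 1.23% in P-bodies and 2.16% in oocytes.

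The levels of vha-6 and vha-5 moved with markers of the intestine, and markers of muscle were lower in the same groups on the TMM scale. Of 13 listed intestine genes, 12 were in the tables, and they took 0.199 to 0.368% of protein-coding counts in P-bodies, against 1.31, 0.365 and 0.942% in oocytes and 7.64 to 8.90% in the whole animals. Vitellogenin genes, which the intestine transcribes for the yolk, made up 97.7 to 98.5% of those counts. Among the defining markers, the gut esterase gene ges-1 had 38 to 51 counts in P-bodies, against 6 to 15 in oocytes and 76 to 128 in the whole animals. These counts are not scaled for depth. On the TMM scale ges-1 averaged 0.165 CPM in P-bodies, 0.328 CPM in oocytes and 4.44 CPM in whole animals. The gut transcription factor gene elt-2 was at 0 in 1 oocyte library. Per 10000 counts of the list, vha-6 had 8.34, 9.98 and 13.8 counts in P-bodies, against 8.26, 9.21 and 11.4 in oocytes and 8.68, 11.7 and 11.9 in whole animals. This ratio, which was chosen after the values were seen, overlapped in all 3 groups. For vha-5 it was 3.90, 2.54 and 4.15 in P-bodies, against 4.80, 1.54 and 5.37 in oocytes and 3.59, 4.26 and 3.60 in whole animals, also with overlap. Without the vitellogenins in the list, vha-6 had 400 to 680 counts per 10000 in P-bodies, against 427 to 580 in oocytes and 378 to 583 in the whole animals. The intestine list itself had medians of -1.43 in P-bodies against oocytes (6 of 12 called lower), -3.38 in oocytes against whole animals (11 lower) and -4.91 in P-bodies against whole animals (11 lower), with 0 called higher in each. With library totals those medians were 1.13, -2.75 and -1.72, so that the first changed its sign, as vha-6 and vha-5 did. The list of 8 muscle genes was lower in the same comparisons on the TMM scale, with medians of -2.48 (7 called lower), -2.27 (6 lower) and -4.87 (8 lower), or 0.08, -1.67 and -1.68 with library totals, and 0 were called higher with TMM. Muscle genes took 0.00885 to 0.0109% of protein-coding counts in P-bodies, against 0.0418 to 0.125% in oocytes and 0.250 to 0.320% in the whole animals. The part of intestinal or muscle RNA in the values of vha-6 and vha-5 was not tested.

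vha-7 and unc-32 did not move with that list. Per 10000 intestine counts vha-7 had 532 to 1063 counts in P-bodies, against 275 to 600 in oocytes and 25.4 to 32.3 in the whole animals. unc-32 had 323 to 669 counts in P-bodies, against 155 to 485 in oocytes and 21.4 to 26.7 in the whole animals. In bulk samples fewer cells of a type and less RNA per cell cannot be told apart.

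**Figure D4:**
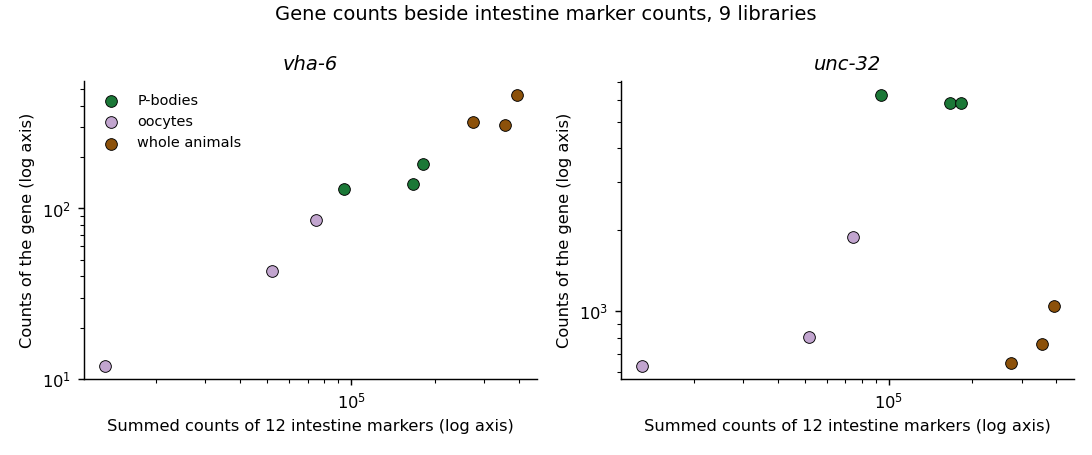
Raw counts of vha-6 (left) and unc-32 (right) against the summed counts of the 12 intestine markers in the 9 libraries, on log axes, with 3 points each for P-bodies, oocytes and whole animals. The counts of vha-6 run from 12 to 465 along with the markers, while unc-32 has 5851 to 6288 counts in P-bodies at marker counts below those of whole animals.

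Markers of neurons, hypodermis and the excretory cell, tissues that unc-32, vha-7 or vha-5 are known for, were also set beside them. In P-bodies against oocytes their medians were -0.21, 0.69 and -0.18 (2.31, 3.15 and 2.32 with library totals). On the TMM scale 1 of 10 neuron genes tested was called higher there and 1 lower. Of 6 hypodermis genes 2 were higher and 1 lower, and of 4 excretory cell genes 1 was higher and 1 lower. The shares of all genes were 26.7% higher and 28.8% lower. All 12 neuron genes were in the tables and summed to 41.4 to 50.2 CPM in P-bodies, against 26.8 to 36.8 in oocytes and 45.6 to 51.4 in the whole animals. Both unc-119 and snb-1 were present in every library and averaged 28.3 and 11.5 CPM in P-bodies, 11.2 and 12.8 CPM in oocytes, and 8.80 and 11.8 CPM in whole animals, where egl-3 also reached 8.89 CPM. The synaptic vesicle gene rab-3 had 6 to 9 counts in P-bodies, 0 in every oocyte library and 7 to 17 in whole animals. Scaled, its mean was 0.0254 CPM in P-bodies, 0 in oocytes and 0.452 CPM in whole animals. At such low counts a 0 in the shallower oocyte libraries does not set oocytes apart from P-bodies. Of the 10 neuron genes tested, 6 were lower in oocytes than in whole animals with a list median of -2.14 (-1.49 with library totals), where unc-32 had -0.06 (0.61). Of all genes 12.5% were called lower there. In P-bodies against whole animals 7 of these neuron genes were called lower and 1 higher, with a median of -2.62 (0.57 with library totals). Of all genes 38.9% were called lower and 27.9% higher in that comparison. The 10 hypodermis genes summed to 99.5 to 106 CPM in P-bodies, against 39.0 to 53.2 in oocytes and 55.6 to 73.9 in the whole animals, carried by nhr-23 and lin-26. Of the 6 tested, 2 were called higher and 3 lower in P-bodies against whole animals, with a median of -3.33 (-0.16 with library totals). With so few genes these counts are near the 27.9 and 38.9% of all genes. In oocytes against whole animals the median was -2.56 (-1.87 with library totals), with 0 called on the TMM scale. The cuticle collagen gene dpy-7 had 0 to 1 counts in P-bodies, against 0 in oocytes and 1 to 7 in the whole animals. Its scaled means were 0.00124, 0 and 0.215 CPM. The 5 excretory cell genes summed to 45.5 to 49.98 CPM in P-bodies, against 20.4 to 24.9 in oocytes and 19.5 to 24.8 in the whole animals. The chloride channel gene clh-3 carried most of that, at 40.3 CPM in P-bodies, 13.6 CPM in oocytes and 12.6 CPM in whole animals, followed by exc-4. The aquaporin gene aqp-8 had 0 to 4 counts in P-bodies, against 0 to 7 in oocytes and 10 to 14 in the whole animals. Scaled, the means of aqp-8 were 0.00623, 0.0460 and 0.557 CPM. Of the 4 genes tested, 1 was higher and 2 lower in P-bodies against whole animals, with a median of -1.13 (2.04 with library totals). That too is near the 27.9 and 38.9% of all genes. In dissected oocytes other members of these lists were present, with 546 to 1184 counts of lin-26, 36 to 234 of col-19 and 63 to 126 of unc-104. The part of these tissues in the values of vha-7, unc-32 and vha-5 was not tested.

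The other pump genes moved in both directions in P-bodies on the TMM scale, by less than vha-6 and vha-5, and all 18 were higher there with library totals. All 18 passed the filter and were tested. In P-bodies against oocytes 5 were called higher and 8 lower, with a median of -0.34, where 26.7% of all genes were higher and 28.8% lower. With library totals the median of the 18 was 2.17, below the 2.44 of all genes. The 8 became 5 without P-body library 2 or 3 or oocyte library 1, 4 without oocyte library 2 and 2 with no filter. vha-9, the F subunit of V1, averaged 15.7 ± 2.89 CPM in P-bodies and 7.87 ± 1.25 CPM in oocytes, with a log2 fold change of 0.99 ± 0.17 (edgeR, adjusted p = 0.000255). vha-4, a proteolipid of the V0 ring, had 0.90 ± 0.18, and vha-20, an accessory subunit, had 0.79 ± 0.18. The lower ones included vha-3, a proteolipid of the same ring, at -1.11 ± 0.31, vha-15, an H subunit, at -0.67 ± 0.21 (not called without oocyte library 1 at -0.31, or without P-body library 2 or 3 at -0.60 and -0.64), and vha-16, the d subunit of V0, at -0.57 ± 0.11 (not called with no filter, -0.35). With library totals these 3 were higher in P-bodies, at 1.43, 1.88 and 1.95. The proteolipid genes vha-2 and vha-3 have near-identical products, so that reads may be split between them, and vha-3 is uncertain. By sector 1 of 10 V1 genes was higher and 5 lower, 2 of 6 V0 genes other than the a subunits were higher and 3 lower, and both accessory genes were higher.

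In oocytes against whole animals 0 of the 18 were called higher and 6 lower, with a median of -0.37, where 0.709% of all genes were higher and 12.5% lower. The largest were vha-3 at -1.33 ± 0.32, vha-20 at -1.0 ± 0.19 and vha-11, the C subunit, at -0.54 ± 0.13, which stood at 0.15 with library totals, where 8 of the 18 were higher and 0 lower. With library totals the median of the 18 was 0.32, below the 0.68 of all genes. There vha-3 and vha-20 kept their direction but not their call (-0.68 and -0.32). Without whole-animal library 2 or 3 the calls of vha-3 (-1.28 each) and vha-11 (-0.54 and -0.53) were lost, and that of vha-11 also without oocyte library 3 (-0.45). The count of 6 lower became 2 without whole-animal library 2, 1 without whole-animal library 3, and 3 with the stricter filter or with sizes over protein-coding genes. In P-bodies against whole animals 3 were higher and 10 lower, with a median of -0.51, where 27.9% of all genes were higher and 38.9% lower. The higher ones were vha-4 at 0.78 ± 0.18, vha-9 at 0.62 ± 0.17 and the accessory gene vha-19 at 0.38 ± 0.14, which overlaps otub-4 on the opposite strand and is uncertain. The call of vha-19 was lost without P-body library 1 or 3 (0.33 and 0.39), without whole-animal library 3 (0.36) and with the stricter filter (0.21). The largest falls were vha-3 at -2.43 ± 0.32, vha-15 at -1.17 ± 0.21 and vha-11 at -1.0 ± 0.13, each above 0 with library totals (0.75, 2.01 and 2.19).

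**Figure D5:**
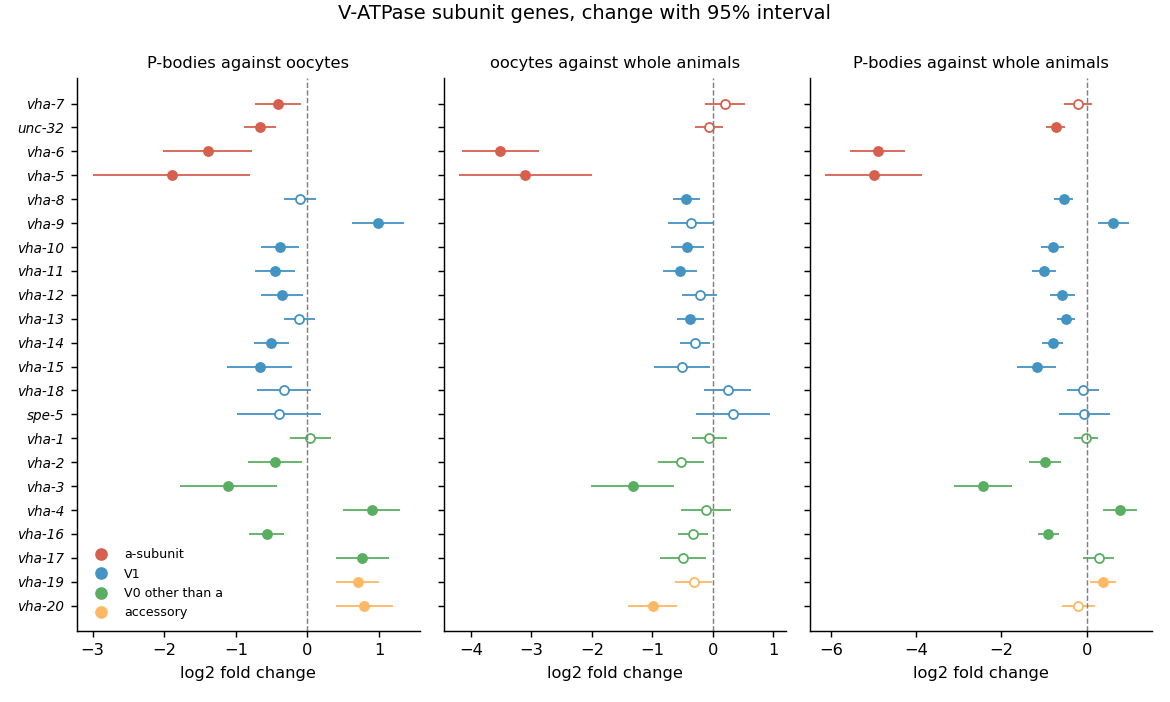
Log2 fold change with 95% interval of the 4 a-subunit genes and the 18 other V-ATPase genes, by sector, in the 3 comparisons on the TMM scale, with filled points where the adjusted p was under 0.05. The other 18 lie between -1.11 and 0.99 in P-bodies against oocytes and between -2.43 and 0.78 in P-bodies against whole animals, where vha-6 and vha-5 lie at -4.91 and -5.0. With library totals the median of the 18 is 2.17 in P-bodies against oocytes and 0.32 in oocytes against whole animals.

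The profiles over the 9 libraries placed vha-5 and vha-6 nearest to each other among the pump genes, while vha-7 and unc-32 each had a nearer one. The root mean square difference between centred log2 CPM profiles was 0.38 between vha-5 and vha-6 and 0.28 between vha-7 and unc-32. The nearest other pump gene was vha-3 for vha-5 (0.63) and for vha-6 (0.96), vha-1 for vha-7 (0.23) and vha-14 for unc-32 (0.16). Of 6238 protein-coding genes with a class symbol, vha-5 was nearest to unk-1 (0.12), tdo-2, a tryptophan dioxygenase gene (0.14), and gta-1, a GABA transaminase gene (0.18). vha-6 was nearest to ugt-22, a glucuronosyltransferase gene (0.18), cpz-2, a cathepsin gene (0.19), and dhs-28, a peroxisomal dehydrogenase gene (0.20). vha-7 was nearest to vpr-1, which encodes a VAP protein (0.05), eif-3.C, a subunit of an initiation factor (0.10), and sun-1, of the nuclear envelope (0.12). unc-32 was nearest to mtm-9, a myotubularin gene (0.06), lin-13, a zinc finger gene (0.07), and vps-54, of a vesicle tethering complex (0.07). With library totals the same 3 genes were nearest for vha-6, vha-7 and unc-32. For vha-5, whose counts are the lowest, only 1 of the 3 was. Apart from the pseudocount, a change of scaling moves all genes of a library alike and leaves these distances unchanged. The match for vha-7 and unc-32 was therefore nearly fixed in advance and shows no stability. vha-6 and vha-5 had P-body levels near the pseudocount, where the scaling can alter a distance.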

How the data were processed

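The authors deposited raw counts per gene, which the table's name credits to HTSeq, and a StringTie table with TPM, FPKM and mean coverage per base, per the file headers. FPKM and coverage entered no test. HISAT2 2.1.0, StringTie, HTSeq, DESeq2, bcl2fastq, FastQC and the build WBcel235 are named in the submitters' processing notes, with no role given. Per the labels' protocols, RNA came from a kit for fixed tissue with reversal of crosslinks, removal of debris was omitted for sorted P-bodies alone, and libraries were stranded and paired-end.

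Groups followed the labels. The deposited counts were fitted with edgeR 4.0.16 (R 4.3.3) by quasi-likelihood, with TMM factors (3.64 to 3.81 in P-bodies, 0.576 to 0.719 in oocytes, 0.399 to 0.425 in whole animals), robust estimation, edgeR's filterByExpr (at least 10 counts and 15 in total, by group) and all 9 libraries in 1 fit. It tested 10162 genes, with 6 residual degrees of freedom, and p-values were adjusted by Benjamini-Hochberg over all of them at 0.05. The fit was tested on simulated data. Profiles were log2(CPM + 0.5). The named other subunits were the called ones with the largest change, up to 3 in each direction, and 3 nearest profiles were named for each member. Alternatives were DESeq2 1.42.0, other scalings, no filter, a stricter filter (at least 10 CPM in 3 libraries), a replicate block, leaving out each library, and limma 3.58.1 on log2(TPM + 1) and log2(TPM + 0.1). The block in a fit of P-bodies and oocytes alone and the nearest profiles with library totals were chosen after seeing the data. An SE is the size of the log2 fold change over the square root of its F statistic. The members and lists were chosen with earlier results of these data known.

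The annotation (Ensembl WBcel235, release 115) held 46603 of 46778 identifiers. Its start and end both matched the deposited ones for 0 of the 4 members. Same-numbered libraries of P-bodies and oocytes deviated together from their group means, with correlations of 0.10, 0.14 and 0.23 over genes, which by the threshold of 0.1 counts as pairing. Unmatched numbers reached as much (0.23 for P-body library 1 with oocyte library 3, 0.10 for P-body library 2 with oocyte library 1), and the labels state no pairing. Those of the other comparisons did not all pass 0.1. No sequence is shown, since only gene models were used here. The list of uterus, spermatheca and sheath markers is not reported here.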

Additional observations from a re-analysis of the deposited data

How the results depend on the processing

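Ribosomal RNA and the scaling limit most directions, and counts of 2 to 65 limit vha-5 in P-bodies and oocytes. On log2(TPM + 1), P-bodies against oocytes gave 0.18 for vha-5, 0.51 for vha-6, 1.87 for vha-7, 1.60 for unc-32, 1.57 for vha-15, 1.01 for vha-3 and 1.70 for vha-16, and on log2(TPM + 0.1) they gave 0.81, 0.94, 1.92, 1.65, 1.69, 1.28 and 1.75. With library totals the 7 gave 0.66, 1.16, 2.13, 1.85, 1.88, 1.43 and 1.95. In oocytes against whole animals the values with library totals, on log2(TPM + 1) and on log2(TPM + 0.1) were 0.85, 0.66 and 0.71 for vha-7, 0.61, 0.51 and 0.55 for unc-32, and 0.15, 0.075 and 0.076 for vha-11. With sizes over protein-coding genes unc-32 had 0.058. In P-bodies against whole animals they were 2.98, 2.54 and 2.63 for vha-7, 2.46, 2.11 and 2.20 for unc-32, 2.19, 1.89 and 1.95 for vha-11, 2.01, 1.62 and 1.75 for vha-15, and 0.75, 0.40 and 0.48 for vha-3. There vha-7 had 0.040 with no filter, 0.031 with only the compared groups and -0.38 with a stricter filter. In P-bodies against oocytes vha-7 had -0.18 with no filter and -0.40 with only the compared groups. Leaving out 1 library at a time gave vha-7 -0.45 to -0.17 in P-bodies against oocytes, and -0.0096 to 0.34 in oocytes against whole animals, where unc-32 had -0.12 to 0.012. Genes called numbered 5640, 1344 and 6790 in the 3 comparisons, and 3376, 202 and 3379 with the stricter filter, which vha-5 did not pass. On TPM, 5507 and 5683 genes were called in oocytes against whole animals and 8473 (pseudocount 0.1) in P-bodies against oocytes. Library totals gave 6481 in oocytes against whole animals (5278 higher), 8093 higher and 340 lower in P-bodies against oocytes, and 7781 and 989 in P-bodies against whole animals. Leaving out 1 library gave 888 (without whole-animal library 2) to 1535 in oocytes against whole animals. With the replicate block in a fit of all libraries 5354, 1221 and 6650 genes were called and no member's call changed, and in a fit of P-bodies and oocytes alone vha-5 (-1.58) lost its call, while the other 3 kept theirs. The causes were not tested.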
